A study of Homo sapiens with 6 samples.

Results

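Autotaxin, the product of ENPP2, and 8 receptors for lipid mediators were examined in MHH-cALL4, an established human leukaemia cell line derived from B-cell precursors. The 9 genes were listed by family: ENPP2, the lysophosphatidic acid (LPA) receptors LPAR1, LPAR2, LPAR5 and LPAR6, the sphingosine-1-phosphate (S1P) receptors S1PR1, S1PR2 and S1PR4, and the cannabinoid receptor CNR2. Each gene was represented by the row (a transcript cluster, whose probes read a single locus) with the highest mean over all 6 arrays, among rows annotated with exactly 1 gene symbol. This rule found 8 of the 9 genes among 33616 genes. LPAR5 was matched to no such row and is not analysed here. Rows were chosen by their mean level over all arrays, so levels are given as descriptions. The fall of ENPP2 was known when the group was put together. The members were chosen with earlier results of these data known, so none of their p-values is independent evidence. The families are not complete, since LPAR3, LPAR4, S1PR3, S1PR5 and CNR1 are not members.

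RNA was measured on 6 Affymetrix arrays, 3 of cells given 1 µM ruxolitinib, which blocks the JAK1 and JAK2 kinases, and 3 of cells given the DMSO vehicle, all for 12 h. Both groups were grown in RPMI medium with fetal bovine serum and antibiotics. All arrays come from 1 cell line, and the labels do not say whether replicates were separate cultures, so p-values measure the spread between these samples, which may be technical. The titles of the ruxolitinib arrays call the line MHH-cALL5. The labels' separate field for the line reads MHH-cALL4 on all 6 arrays and was followed. In such bulk RNA, fewer cells with a transcript and less of it per cell cannot be told apart.

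Autotaxin is a secreted enzyme that cleaves choline from lysophosphatidylcholine and so makes LPA outside the cell. LPA acts on G protein-coupled receptors of a pair of families: LPAR1, LPAR2 and LPAR3 are close relatives of the S1P receptors, and LPAR4, LPAR5 and LPAR6 are closer to purinergic receptors. S1P is made from sphingosine by sphingosine kinases. In lymphocytes S1PR1 draws cells towards S1P and out of lymphoid organs, S1PR2 restrains migration of germinal centre B cells, and S1PR4 is found mainly on haematopoietic cells. CNR2 binds endocannabinoids such as 2-arachidonoylglycerol and is the main cannabinoid receptor of B cells.

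The 250-base promoter windows of the receptors that fell, LPAR6 and CNR2, are shown with that of LPAR2, a receptor for the same ligand as LPAR6 that did not pass the test. The sequences are RefSeq's on GRCh38.p14, 5′ to 3′ on the gene's strand. LPAR6 is at chr13:48413108-48413357, CNR2 at chr1:23913363-23913612 and LPAR2 at chr19:19628221-19628470, all on the minus strand. Capitals mark a match to TTCNNNGAA, the pattern bound by STAT5 and also by BCL6. The LPAR6 window runs 6 bases past the annotated start of the gene, to the end of its match. The other windows end just before the start.
LPAR6: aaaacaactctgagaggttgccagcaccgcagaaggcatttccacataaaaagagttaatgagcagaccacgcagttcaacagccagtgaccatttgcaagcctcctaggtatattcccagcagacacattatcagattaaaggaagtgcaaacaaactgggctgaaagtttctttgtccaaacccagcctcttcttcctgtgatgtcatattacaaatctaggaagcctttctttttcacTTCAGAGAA
CNR2: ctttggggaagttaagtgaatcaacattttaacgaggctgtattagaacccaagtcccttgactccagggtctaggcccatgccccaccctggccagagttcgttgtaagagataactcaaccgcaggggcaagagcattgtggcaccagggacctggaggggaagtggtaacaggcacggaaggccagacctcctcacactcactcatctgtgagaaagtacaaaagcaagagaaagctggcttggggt
LPAR2: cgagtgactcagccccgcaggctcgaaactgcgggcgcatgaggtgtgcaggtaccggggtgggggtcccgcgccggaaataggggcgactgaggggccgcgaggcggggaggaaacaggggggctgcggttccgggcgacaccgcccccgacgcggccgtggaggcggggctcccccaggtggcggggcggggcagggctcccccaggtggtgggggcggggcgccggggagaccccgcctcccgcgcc

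The promoter table (250 bases before to 50 after each start) matched 8 of the 9 members, all but ENPP2. Of these, only LPAR6 held TTCNNNGAA, as TTCAGAGAA, which begins 3 bases before its start. The same pattern, searched on both strands, was in 7.66% of 35116 promoters. The form with 1 more base in the gap, preferred by STAT6, and the E box CACGTG were in 0 of the 8 members' promoters, against 6.44% and 7.26% of all promoters. Counted by gene, as the members are, the shares over 27305 genes were 9.38% for TTCNNNGAA, 7.80% for the STAT6 form and 8.77% for CACGTG. A match is a run of letters, not a measured site. The G and C content of the 250 bases before the start was 42.8% for LPAR6 and 52.4% for CNR2, below the 58.0% median of all promoters. It was also below that median for LPAR5, at 55.2%. Above it were S1PR1 at 64.4%, S1PR4 at 66.8%, S1PR2 at 74.0% and LPAR2 at 78.4%. The 6 annotated starts of LPAR1 lay on both sides of the median, between 36.4% and 84.4%.

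On these arrays ENPP2, LPAR6 and CNR2 fell with ruxolitinib and none of the 8 measured members rose. The other 5, LPAR1, LPAR2, S1PR1, S1PR2 and S1PR4, did not pass the test in either direction. A gene passed at an adjusted p under 0.05, from limma with Benjamini-Hochberg adjustment over all 33616 genes. Over all genes 1.14% passed, 1.04% as lower and 0.101% as higher. No member was higher at an unadjusted p under 0.05 either (0 of 8, limma). The groups did not overlap with ruxolitinib lower in the same 3 members, against 9.03% of all genes, and with ruxolitinib higher in 0, against 5.14%. CISH, a feedback inhibitor induced by STAT5, was at 5.87 ± 0.12 with ruxolitinib and 12.39 ± 0.26 in DMSO (log2 signal, SD, n = 3 each).

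The median log2 signal over all rows was 4.51 to 4.59 on the 6 arrays. Ruxolitinib replicate 3 and DMSO replicate 1 stood apart from the other arrays on the second principal component (29.8% of the variance). Their mean signal over 279 genes for rRNA, snRNA and snoRNA was 8.14 and 8.17, against 7.65 to 7.85 on the other arrays. Without both of them ENPP2, LPAR6 and CNR2 kept their call, CNR2 only just (adjusted p = 0.0480, limma). Of 12 B-cell precursor markers 10 were measured, and all 10 had a mean above the median gene, among them CD79A, PAX5, DNTT and CRLF2. None of these 10 passed (limma), and RAG1, VPREB1 and MME were higher with ruxolitinib at an unadjusted p under 0.05. Among 17 measured markers of T cells, myeloid cells and stromal cells or adipocytes, 0 passed (limma), and 1, CD2, had an unadjusted p under 0.05, with a log2 change of -0.51. Some of these markers also had a mean above the median gene. They were 1 of 6 for T cells, 2 of 5 for myeloid cells and 3 of 6 for stromal cells or adipocytes.

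ENPP2 had a log2 signal of 4.97, 5.92 and 5.07 on the ruxolitinib arrays, against 7.99, 8.21 and 8.69 on the DMSO arrays. The groups did not overlap, and ruxolitinib replicate 2 was the highest of its group. The mean was 5.32 ± 0.52 with ruxolitinib and 8.30 ± 0.35 in DMSO (SD, n = 3 each). The log2 change was -2.98 ± 0.27 (SE; 95% interval -3.57 to -2.38), a 7.87-fold fall, with an adjusted p of 0.000324 (limma). This row was chosen over a second ENPP2 row by its mean over all 6 arrays (6.81 against 6.55). It was the brighter of the pair only on the DMSO arrays, so this change and its p-value depend on that choice. The ruxolitinib values of 4.97 and 5.07 lay below the 5.25 mean level of the median gene, where with no detection calls a signal cannot be told from background, so the fold may be a lower bound. The call held under all 16 alternative settings, at log2 changes of -3.28 to -1.67. None of these settings used the second ENPP2 row alone, which did not pass and is given next.

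A second ENPP2 row gave another picture. Its log2 signals were 6.22, 6.82 and 6.07 with ruxolitinib, against 7.06, 6.38 and 6.74 in DMSO, so the groups overlapped. Its log2 change was -0.36 ± 0.24 (SE; 95% interval -0.89 to 0.18; adjusted p = 0.775, limma over all rows with 1 symbol). The first row minus the second was -1.25, -0.90 and -1.0 on the ruxolitinib arrays, against 0.93, 1.83 and 1.95 on the DMSO arrays. The first row was thus the lower of the pair on every ruxolitinib array and the higher on every DMSO array. This gap holds the ENPP2 fall itself and is given as a description, with no test. Averaging both rows gave a log2 change of -1.67 with an adjusted p of 0.00696 (limma). Which ENPP2 transcripts each row reads is not given in the sources used here.

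**Figure D1:**
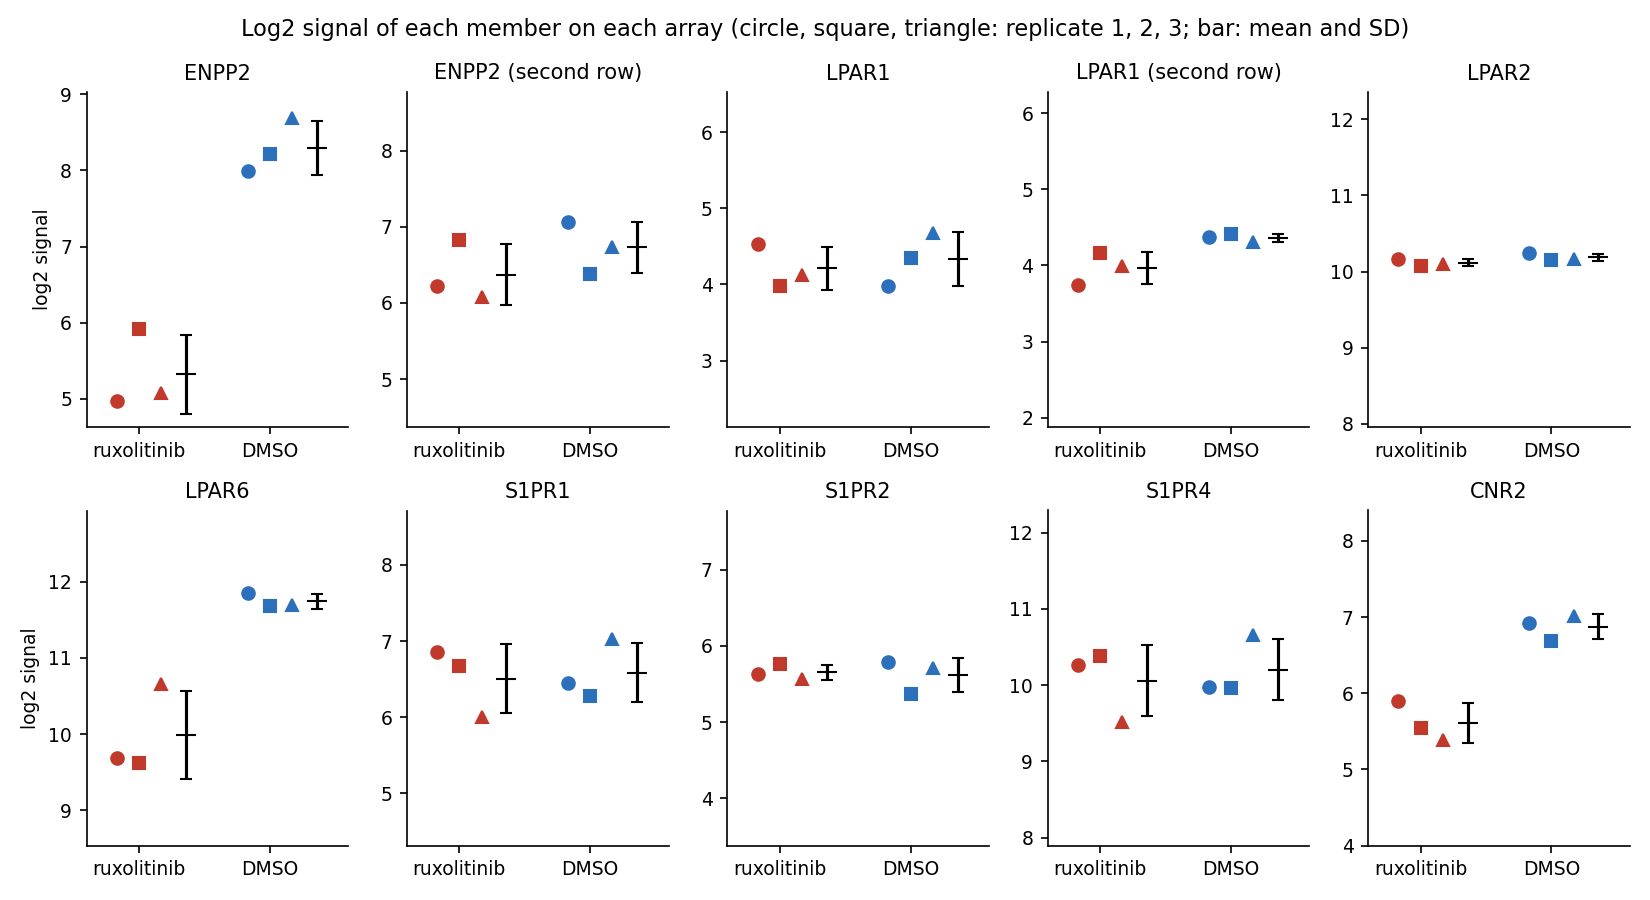
Log2 signal (y axis) of each measured member on each array, with the second rows of ENPP2 and LPAR1; ruxolitinib arrays are red and DMSO arrays blue, and symbols give the replicate number. Bars are means with SD, and every panel spans the same range of log2 units. The groups are apart for ENPP2 (4.97 to 5.92 against 7.99 to 8.69), LPAR6 and CNR2, and for the dim second row of LPAR1, and overlap in the other panels.

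Among the LPA receptors, 1 of 5 measured fell and 0 rose. LPAR6, which couples to G12 and G13 proteins and is known for inherited hair loss when mutated, had log2 signals of 9.69, 9.62 and 10.65 with ruxolitinib, against 11.85, 11.68 and 11.69 in DMSO. The DMSO arrays lay close together, and ruxolitinib replicate 3 was about a unit of log2 above the other ruxolitinib arrays. The mean was 9.98 ± 0.58 with ruxolitinib and 11.74 ± 0.10 in DMSO (SD, n = 3 each). The change was -1.76 ± 0.26 on the log2 scale (SE; 95% interval -2.33 to -1.19), a 3.38-fold fall, with an adjusted p of 0.00791 (limma). The call did not hold when ruxolitinib replicate 2 was left out (adjusted p = 0.0670), nor without DMSO replicate 2 (adjusted p = 0.0547), nor when all 135750 rows were tested (adjusted p = 0.0959).

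LPAR2, a receptor of the other LPA receptor family, was at 10.17, 10.08 and 10.11 with ruxolitinib, against 10.24, 10.15 and 10.17 in DMSO (log2 signal). The SD was 0.05 in both groups, and the ranges overlapped. The log2 change was -0.07 ± 0.16 (SE; 95% interval -0.43 to 0.29), and its sign turned under quantile normalization (0.10) and cyclic loess (0.07). LPAR1, the most widely expressed LPA receptor in tissues, was dim, at 4.53, 3.98 and 4.12 with ruxolitinib, against 3.98, 4.34 and 4.68 in DMSO. It too lay below the median gene. Its log2 change was -0.12 ± 0.22 (SE; 95% interval -0.61 to 0.37).

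A second LPAR1 row was at 3.74, 4.17 and 4.0 with ruxolitinib, against 4.37, 4.41 and 4.31 in DMSO. These groups did not overlap, but the log2 change of -0.39 ± 0.18 (SE) did not pass (adjusted p = 0.537, limma). LPAR3 and LPAR4, which are not among the members, were dim too, at means of 4.39 and 4.62 with ruxolitinib and 4.10 and 4.59 in DMSO. Their log2 changes were 0.29 ± 0.22 and 0.03 ± 0.19 (SE), and neither passed.

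Of the S1P receptors 4 were measured, S1PR3 being matched only to a row that it shares with another gene, and 0 passed in either direction (limma; 0 at an unadjusted p under 0.05 as well). S1PR1 was at 6.85, 6.67 and 6.0 with ruxolitinib, against 6.45, 6.28 and 7.03 in DMSO (log2 signal). S1PR4 was at 10.26, 10.38 and 9.52 with ruxolitinib, against 9.98, 9.96 and 10.66 in DMSO. In both receptors ruxolitinib replicate 3 was the lowest array of all and DMSO replicate 3 the highest, so that the spread within groups was larger than the gap between them.

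The log2 change was -0.08 ± 0.26 for S1PR1 (SE; 95% interval -0.65 to 0.49). For S1PR4 it was -0.15 ± 0.27 (SE; 95% interval -0.73 to 0.44). Without ruxolitinib replicate 3 these became 0.18 and 0.12, and without DMSO replicate 3 they became 0.14 and 0.09. Ruxolitinib replicate 3 was one of the pair of arrays that stood apart, with a small RNA signal of 8.14. Without that pair the log2 changes were 0.11 for S1PR1 and 0.01 for S1PR4. S1PR2 varied little, at 5.63, 5.76 and 5.57 with ruxolitinib, against 5.78, 5.37 and 5.71 in DMSO, with a log2 change of 0.03 ± 0.18 (SE; 95% interval -0.37 to 0.43). S1PR5, outside the members, had a dim mean of 3.22 with ruxolitinib and 3.43 in DMSO.

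CNR2 had log2 signals of 5.90, 5.54 and 5.38 with ruxolitinib, against 6.92, 6.69 and 7.01 in DMSO. Every ruxolitinib array was lower than every DMSO array. The mean was 5.61 ± 0.26 with ruxolitinib and 6.87 ± 0.17 in DMSO (SD, n = 3 each). The change was -1.26 ± 0.19 on the log2 scale (SE; 95% interval -1.69 to -0.84), a 2.40-fold fall, with an adjusted p of 0.00955 (limma). The call did not hold when ruxolitinib replicate 2 was left out (adjusted p = 0.0777) or when all rows were tested (adjusted p = 0.0907). CNR1, the cannabinoid receptor best known from the brain, was at 5.43 ± 0.24 with ruxolitinib and 5.52 ± 0.12 in DMSO (SD, n = 3 each), a log2 change of -0.08 ± 0.19 (SE).

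**Figure D2:**
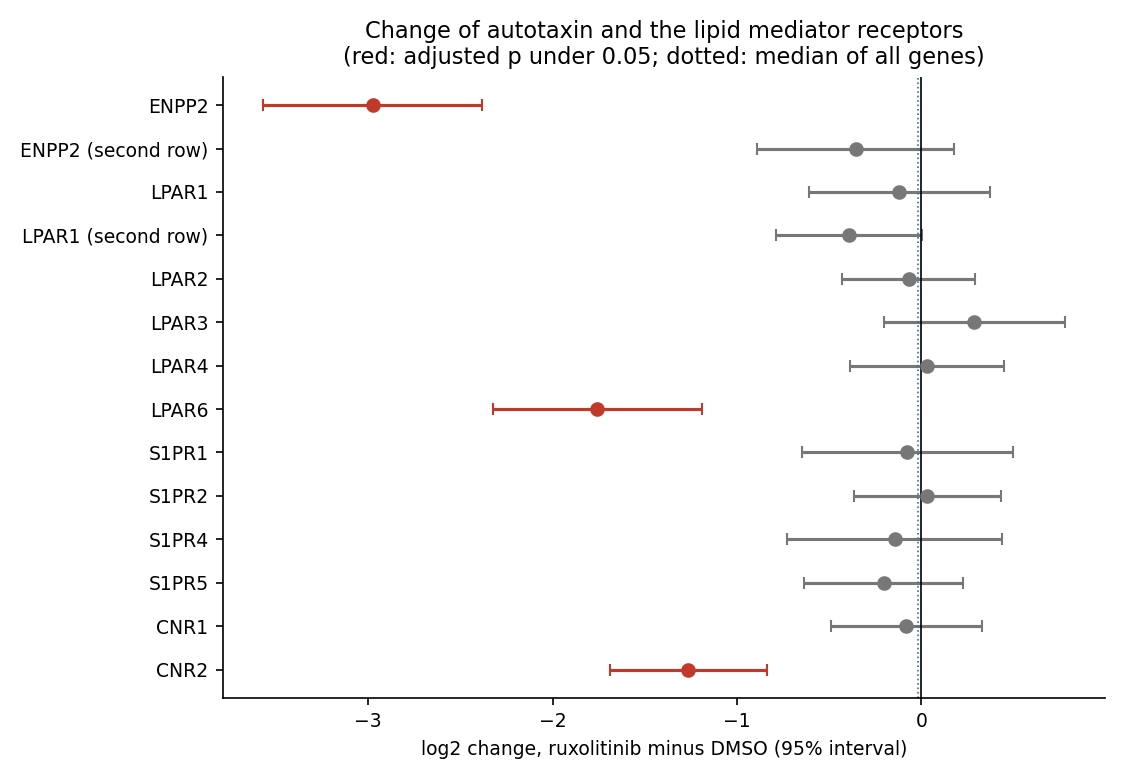
Log2 change, ruxolitinib minus DMSO, with its 95% interval from limma (x axis) for each row of the measured members and of LPAR3, LPAR4, S1PR5 and CNR1. ENPP2 (-2.98), LPAR6 (-1.76) and CNR2 (-1.26) passed and are red, and the interval of each grey row includes 0.

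The genes around these members were taken from 9 lists by role, which include the members. Of 118 listed genes 110 were measured, and 8 fell and 0 rose (limma, adjusted over all genes). Over all genes 1.04% fell and 0.101% rose. However, 76 of the 110 lay above the median level, where calls were more frequent. With only the 16808 genes above that level tested, 383 fell and 36 rose, among them 8 and 0 of the listed genes. Without the members, 5 of 102 fell and 0 rose, with a median log2 change of -0.04 beside -0.02 over all genes. Those 5 were AGPAT4, FABP5, CD69, RGS10 and RGS14. At an unadjusted p under 0.05, 12 of the 102 were lower with ruxolitinib and 4 higher (limma). The share of all genes at this unadjusted threshold was not computed, so this and the other unadjusted counts are descriptions. The 7 lower genes that did not pass after adjustment were ENPP4, AGK, ABCC1, NAAA, PTGER4, TBXA2R and ARRB1. NAAA, an enzyme that breaks down palmitoylethanolamide, had a log2 change of -0.84. The 4 higher genes were DAGLB, which makes 2-arachidonoylglycerol, P2RY8, the receptor kinase gene GRK2 and KLF2, a transcription factor that switches on S1PR1 and lay below the median gene here.

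On the LPA side, 2 of 18 measured genes of LPA synthesis and breakdown fell, ENPP2 itself and AGPAT4, an acyltransferase that turns LPA into phosphatidic acid inside the cell. AGPAT4 was at 5.92, 6.23 and 6.65 with ruxolitinib, against 7.24, 7.84 and 7.55 in DMSO, a log2 change of -1.28 ± 0.23 (SE; adjusted p = 0.0224, limma). Of the 6 measured members of the ENPP family, which are ectoenzymes that hydrolyse nucleotides or lipids, only ENPP2 passed. The changes of ENPP1, ENPP3, ENPP4, ENPP5 and ENPP6 ran from -0.46 for ENPP4 to 0.13 for ENPP3 on the log2 scale.

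Of 11 measured genes of S1P synthesis, export and breakdown, 0 passed (limma), with 1, ABCC1, at an unadjusted p under 0.05. ABCC1, a transporter that can export S1P, had the smallest adjusted p, at 11.87 ± 0.08 with ruxolitinib and 12.47 ± 0.11 in DMSO (SD, n = 3 each), a log2 change of -0.60 ± 0.17 (SE; adjusted p = 0.160, limma). The ceramidase ACER2, which releases sphingosine, followed with 0.46 ± 0.25 on the log2 scale (SE; adjusted p = 0.639, limma).

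Among 14 endocannabinoid receptors and enzymes, CNR2 and FABP5 fell and 0 rose. FABP5, a carrier of fatty acids and endocannabinoids in the cytosol, was at 11.25, 11.16 and 11.40 with ruxolitinib, against 12.35, 12.46 and 11.90 in DMSO. Its log2 change was -0.97 ± 0.20 (SE; adjusted p = 0.0411, limma). This call held in 1 of the 6 fits that leave out 1 array and in 5 of all 16 alternatives. It was lost under quantile normalization, under cyclic loess and with the mean of all rows of a gene.

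Of 22 other lipid mediator receptors 0 passed (limma), with P2RY8, TBXA2R and PTGER4 at an unadjusted p under 0.05. P2RY8, a receptor that confines germinal centre B cells, was at 12.22, 11.97 and 11.76 with ruxolitinib, against 10.97, 11.26 and 11.79 in DMSO, a log2 change of 0.65 ± 0.23 (SE; adjusted p = 0.329, limma). The thromboxane receptor gene TBXA2R had a log2 change of -0.52 ± 0.22 (SE; adjusted p = 0.452, limma).

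Downstream of the receptors, 0 of 15 genes for G proteins, RhoGEFs and their effectors passed (limma; 0 at an unadjusted p under 0.05), with a list median of 0.05. GNA13, the G protein through which S1PR2 and P2RY8 act, had a log2 change of 0.24 ± 0.17 (SE), and GNAI3, an inhibitory G protein, -0.22 ± 0.21 (SE).

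Among 16 measured regulators of the receptors, CD69, RGS10 and RGS14 fell and 0 rose. CD69, which binds S1PR1 and takes it off the cell surface, was at 7.26, 6.72 and 6.99 with ruxolitinib, against 8.08, 8.11 and 8.02 in DMSO, a log2 change of -1.08 ± 0.19 (SE; adjusted p = 0.0198, limma). RGS10, which shortens signalling by inhibitory G proteins, was at 9.26, 8.40 and 8.55 with ruxolitinib, against 10.76, 10.001 and 10.10 in DMSO, a log2 change of -1.55 ± 0.27 (SE; adjusted p = 0.0184, limma). RGS14, of the same family, changed by -1.04 ± 0.22 on the log2 scale (SE; adjusted p = 0.0474, limma). With each of the 6 arrays left out in turn, AGPAT4 and RGS10 passed in 2, CD69 in 1 and RGS14 in 0 (adjusted p up to 0.137, 0.134, 0.125 and 0.149). Over all 16 alternatives AGPAT4 passed in 10, RGS10 in 9, CD69 in 8 and RGS14 in 3. The calls of CD69, RGS10 and RGS14 were lost without the pair of arrays that stood apart, and those of RGS10 and RGS14 under quantile normalization.

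**Figure D3:**
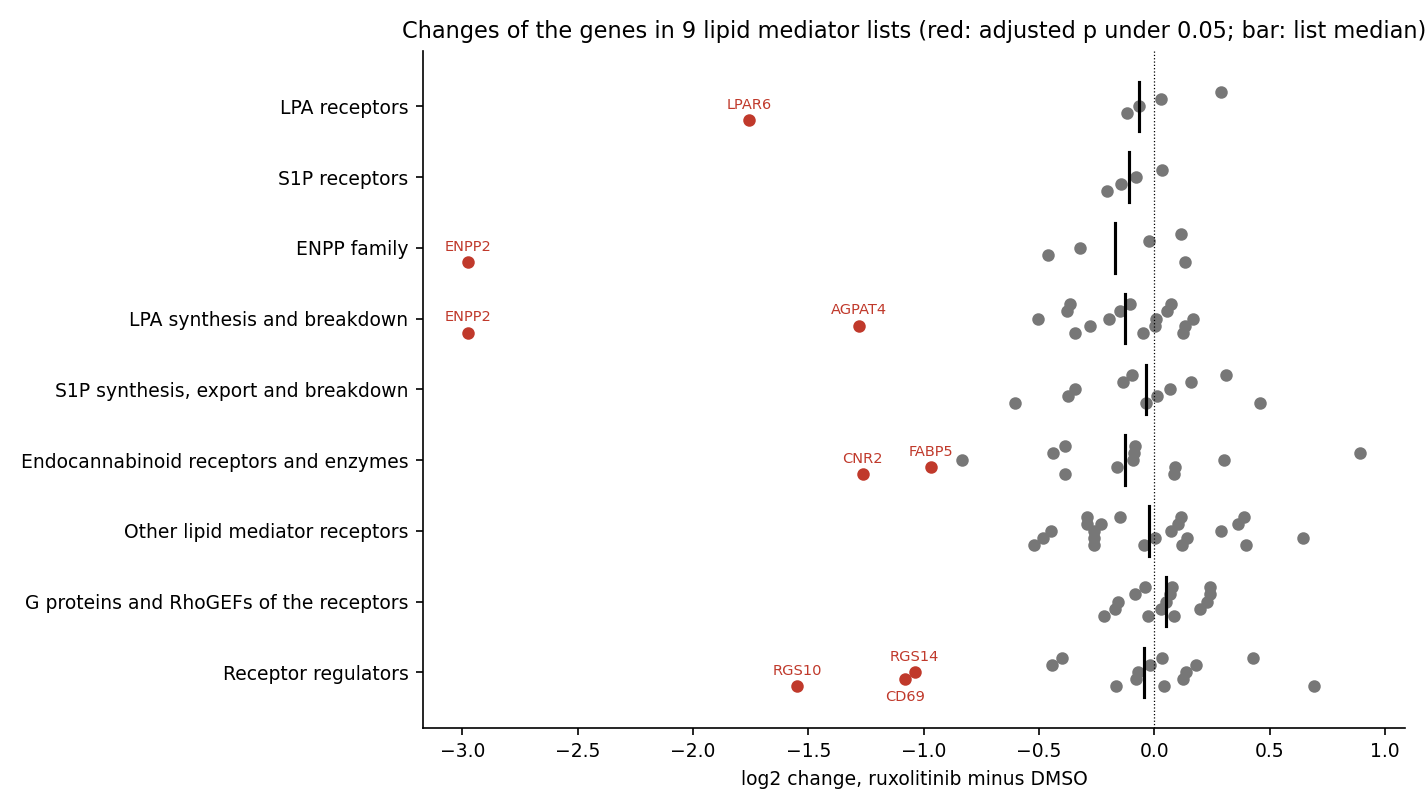
Log2 change, ruxolitinib minus DMSO (x axis), of every measured gene in the 9 lists, with red points for genes past the threshold and black bars for list medians. All red points lie left of 0, and the list medians lie between -0.17 and 0.05.

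Of the genes beside the fallen members on the chromosome, FUCA1 passed the test. The nearest measured protein-coding genes on each side were taken in RefSeq order. ENPP2, on chromosome 8, lies between CCN3, with a log2 change of 0.02 ± 0.19, and TAF2, with -0.25 ± 0.22 (SE), and neither passed. LPAR6 lies within the span of RB1, the retinoblastoma gene, which was at 15.47 ± 0.15 with ruxolitinib and 15.62 ± 0.17 in DMSO (SD, n = 3 each), a log2 change of -0.15 ± 0.18 (SE). On its other side RCBTB2 had -0.64 ± 0.19 on the log2 scale (SE; adjusted p = 0.189, limma).

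CNR2 is next to FUCA1, a lysosomal fucosidase gene that also fell. FUCA1 was at 10.78, 10.37 and 9.99 with ruxolitinib, against 11.51, 11.82 and 11.84 in DMSO, a log2 change of -1.34 ± 0.22 (SE; adjusted p = 0.0143, limma). PNRC2, on the other side of CNR2, had -0.17 ± 0.21 (SE). The FUCA1 call was lost without ruxolitinib replicate 2, DMSO replicate 2 or DMSO replicate 3 (adjusted p up to 0.0974). It passed in 11 of the 16 alternatives, with adjusted p up to 0.135.

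S1PR4, which did not pass, lies between GNA15, a G protein gene of blood cells with a log2 change of -0.99 ± 0.24 (SE; adjusted p = 0.0882, limma), and NCLN, which fell by 0.90 ± 0.18 (SE; adjusted p = 0.0438, limma). The NCLN call held in 0 of the 6 fits with 1 array left out (adjusted p 0.0756 to 0.196). Among the other neighbours, MRPL4 beside S1PR2 had a log2 change of -0.95 ± 0.22 (SE; adjusted p = 0.0797, limma), and those of LPAR1, LPAR2, LPAR5 and S1PR1 ran from -0.33 for CHD4 to 0.38 for PBX4.

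**Figure D4:**
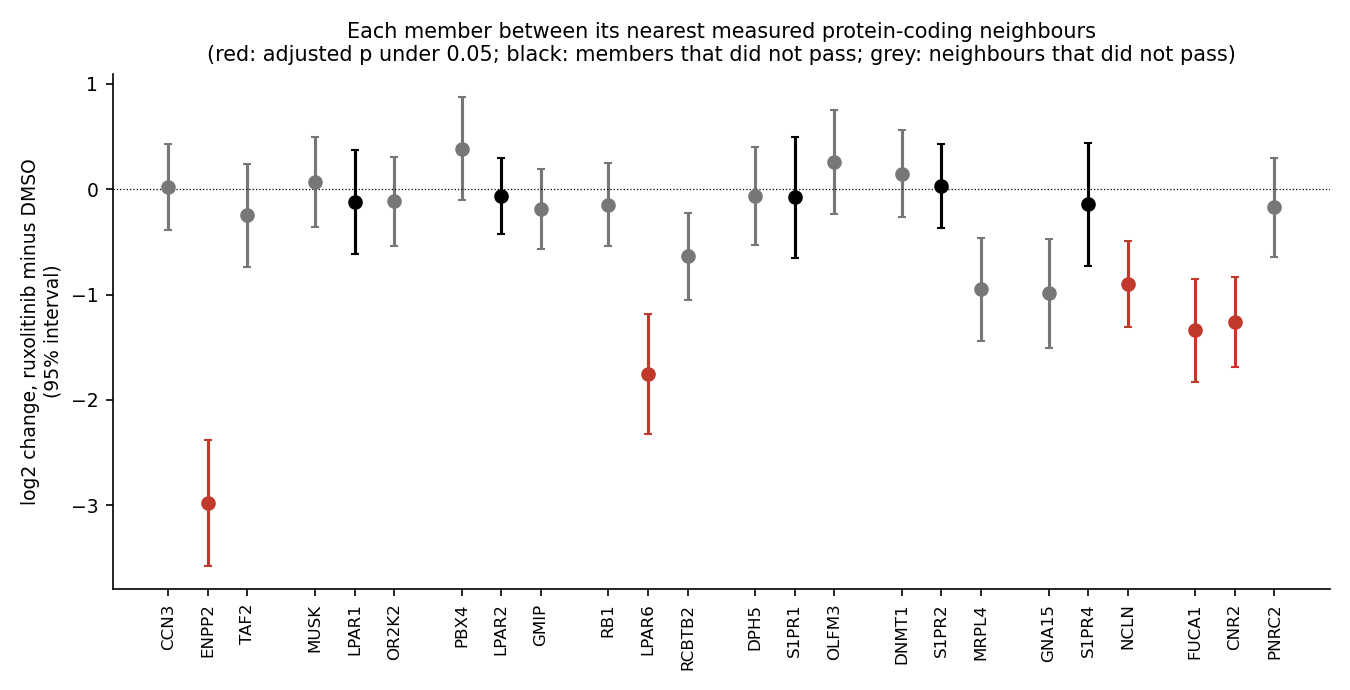
Log2 change, ruxolitinib minus DMSO, with its 95% interval (y axis) for each measured member, placed between its nearest measured protein-coding neighbours. ENPP2 and LPAR6 passed with neighbours that did not, CNR2 (-1.26) stands beside FUCA1 (-1.34), and S1PR4 did not pass beside NCLN, which did.

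The genes most like each fallen member over the 6 arrays were found by the Euclidean distance between log2 values after each gene's own mean was subtracted, among 10947 other protein-coding genes above the median level. The distance uses all 6 values, so a like change or a like order of the replicates in these genes is not a separate result. Nearest to ENPP2 were JCHAIN, which joins IgM and IgA chains (distance 0.667), the transcriptional repressor BHLHE40 (0.741), ID2, an inhibitor of E proteins (0.882), the cytokine TNF (0.902) and the kinase gene MAPKAPK3 (0.925). JCHAIN was at 15.42, 16.14 and 15.55 with ruxolitinib, against 18.09, 18.57 and 18.37 in DMSO, and like ENPP2 it was highest in ruxolitinib replicate 2 among the ruxolitinib arrays.

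Nearest to LPAR6 were MYBBP1A, a nucleolar protein gene (distance 0.479), VSIR, which encodes the immune checkpoint VISTA (0.529), FAM219A (0.657), the sterol carrier gene SCP2 (0.709) and ACACA, an acetyl-CoA carboxylase gene (0.713). These 5 genes had log2 changes of -1.79 to -1.38. In each of them, as in LPAR6, ruxolitinib replicate 3 was the highest of the ruxolitinib arrays. VSIR was at 4.53, 4.27 and 4.86 with ruxolitinib, below the median gene, and passed the level filter only through its DMSO arrays. The chosen row of ACACA passed, but the mean of all its rows did not (adjusted p = 0.120, limma).

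Nearest to CNR2 was KSR1, a scaffold of the RAF and MEK kinases, at a distance of 0.0628. CLUH (0.142), the mitochondrial translocator gene TSPO (0.149), the natriuretic peptide receptor gene NPR1 (0.153) and CDKN1A, the gene of the p21 protein that halts the cell cycle (0.221), followed. The chosen row of TSPO passed, but the mean of all its rows did not (limma). KSR1 was at 7.05, 6.66 and 6.48 with ruxolitinib, against 8.07, 7.78 and 8.16 in DMSO. As in CNR2, replicate 1 was highest with ruxolitinib and replicate 2 lowest in DMSO.

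**Figure D5:**
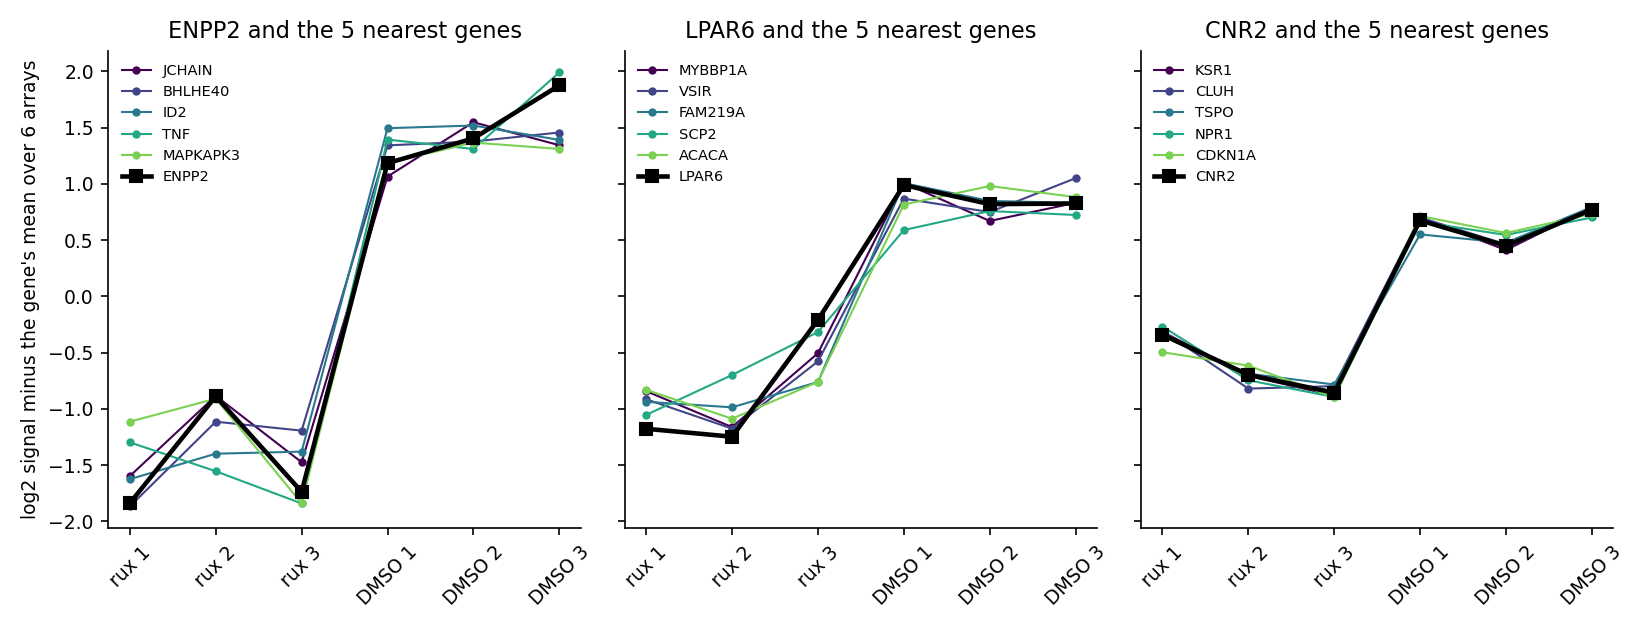
Log2 signal minus the gene's mean over 6 arrays (y axis) on each array, for ENPP2, LPAR6 and CNR2 (black) and the 5 genes nearest to each (coloured); lines only join the points of a gene. The ruxolitinib arrays (rux) lie below 0 and the DMSO arrays above 0 for all 18 genes drawn.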

How the data were processed

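RNA of 3 ruxolitinib and 3 DMSO samples was measured on Affymetrix arrays. Per the submitters' processing notes, the tools were RMA, the Transcriptome Analysis Console and Affymetrix Expression Console; what each did is not stated. The authors deposited log2 signals, one per transcript cluster (range 1.99 to 19.92), used as given; for the genome build, the annotation and any filter the status is: not given in the sources used here. Of 135750 rows, 36176 had exactly 1 gene symbol, 1119 several and 98455 none; symbols were updated through Entrez identifiers with RefSeq (GRCh38.p14), which matched 25516 rows. Ruxolitinib was compared with DMSO by limma 3.58.1 in R 4.3.3 (lmFit, eBayes, no covariates, two-sided) on 33616 genes. Over all genes the standard error of the log2 change had a median of 0.200. The fit was tested on simulated data with noise drawn independently for each array. Ruxolitinib replicate 3 and DMSO replicate 1 deviated together, so that simulation does not give the error rate for these data. Arrays have no read depth; their number limits precision.

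The members, the gene lists and the tests were chosen with earlier results of these data known. Named were all members and their further rows, the remaining measured receptors of the families, genes of each list past the threshold (with none, the 2 with the smallest adjusted p), the nearest neighbours, CISH and the 5 nearest genes by pattern. PTGER4, DAGLB, KLF2, GRK2, AGK, NAAA, ARRB1 and the other ENPP genes and marker genes named fall outside this rule and were picked after their values were seen. The 16 alternatives covered the spread model, filters, rows, scaling, array weights, the replicate number and arrays left out. Same-numbered arrays did not deviate together from their group means (correlations -0.40 to -0.08), so numbers were not treated as pairs.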

Additional observations from a re-analysis of the deposited data

How the results depend on the processing

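ENPP2 kept its fall and its call under all 16 alternatives, with log2 changes of -3.28 to -2.78 when 1 array was left out. None of the 16 used its second row alone, which did not pass (adjusted p = 0.775, limma). The count of fallen members, 3, was 1 (ENPP2) when all rows of the table were tested and 1 to 3 when 1 array was left out (1 without ruxolitinib replicate 2, 2 without DMSO replicate 2). The 8 lower genes of the 9 lists became 5 under quantile normalization, 1 with all rows tested, 4 without the pair of arrays that stood apart (DMSO replicate 1 and ruxolitinib replicate 3) and 1 to 5 when 1 array was left out, lowest without ruxolitinib replicate 2. Members and list genes passing as higher stayed at 0 under all 16 alternatives. The 384 genes called overall became 104 with all rows tested, 592 with protein-coding genes only, 319 without that pair and 101 to 291 when 1 array was left out, again lowest without ruxolitinib replicate 2; testing more or fewer rows changes the adjustment, and the other causes were not tested. The 350 lower and 34 higher genes became 220 and 56 under quantile normalization and 244 and 59 under cyclic loess.

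With the replicate number as a block, 122 genes were called, 2 members were lower (CNR2 lost its call, adjusted p = 0.0536, limma) and 3 list genes were lower; AGPAT4, FABP5, CD69, RGS14, FUCA1 and NCLN lost their calls too. Values of LPAR1, LPAR2, S1PR1, S1PR2 and S1PR4 changed sign in 14 of 127 member values over the alternatives, always without passing. The best match in deviations was DMSO replicate 3 for ruxolitinib replicates 1 and 2 and DMSO replicate 1 for ruxolitinib replicate 3. Detection calls were not used here, so dim levels, such as those of LPAR1, cannot be told from background.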
